A study of Mus musculus with 10 samples.

Results

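The cyclophilins are the protein family that includes the binding partners of cyclosporin A (CsA). This account follows genes of the family in mouse kidneys after 7 daily injections of the drug. The family was taken as 10 genes, Ppia, Ppib, Ppic, Ppid, Ppif, Ppig, Ppih, Ppil1, Ppil3 and Ppwd1. Each was represented by its array feature with the highest mean. Earlier results of these data were known when these genes were chosen, and 7 further cyclophilin genes are given separately below. Of the 10 genes, 9 were measured, among 30896 genes in all, and none of the 9 was removed by a filter. Ppih was not analysed here, since no feature matched its symbol, its older names or its accessions.

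The 5 CsA kidneys came from mice given 60 mg/kg under the skin each day, and the 5 control kidneys from mice given the same volume of the solvent cremophore, called vehicle below. All mice were 10 to 12 weeks old, had a C57BL/6 background and ate chow with 0.05% sodium. They belonged to a line in which a single 3 mg injection of doxycycline under the skin deletes Vhl through an rtTA switch driven by Pax8, a promoter of tubule cells. The labels describe this injection alike for all 10 samples, as the means of inducing the knockout, and leave unstated which animals received it. RNA from frozen kidney pieces holding every cell type was read on Affymetrix Mouse Gene ST 2.0 arrays, 1 per sample, so fewer cells of a type and less RNA per cell cannot be told apart. Kidney identity was checked with 8 epithelial markers, whose summed level on the log2 scale ran from 14.42 to 14.55 in CsA and from 14.45 to 14.50 in vehicle. The test described below called 1 of them higher over all arrays and 1 lower in male arrays.

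CsA replicates 1 and 2 stood apart from the other arrays, because they carried female RNA. Their Xist values, the transcript that silences an X chromosome in females, were 9.21 and 9.15, against 4.82 or less in the other 8 arrays. Their mean over 4 Y-linked genes was 3.90 and 4.03, against 6.91 or more elsewhere. Results are for all 10 arrays unless they are said to be for the 8 male arrays, which are 3 CsA and 5 vehicle. Whether each sample was a different mouse is not stated, so the p-values describe the spread of these samples, which may be technical.

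Cyclophilins are enzymes that turn the bond before a proline between its cis and trans forms, which helps proteins fold and change shape. CsA sits in the active site of cyclophilin A, and the pair together blocks the phosphatase calcineurin, the action for which the drug is used in transplantation. Members sit in different compartments: Ppia and Ppid encode cytosolic proteins, Ppib and Ppic proteins of the secretory pathway, Ppif a mitochondrial protein, and Ppig, Ppih, Ppil1, Ppil3 and Ppwd1 proteins that are found with the splicing machinery in the nucleus. The annotation on the array calls Ppid cyclophilin D and Ppif cyclophilin F, whereas work on mitochondria usually uses the name cyclophilin D for the product of Ppif. Binding of the drug and protein levels were not measured here.

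The cyclophilin genes did not move as a block. Transcripts of the secretory pathway member Ppib rose 1.26-fold with CsA, those of the cytosolic Ppid fell 1.44-fold, and those of the nuclear Ppwd1 fell 1.25-fold. Ppia, which encodes cyclophilin A, was 1.15-fold higher and lay just outside the threshold. The test was limma's moderated comparison with Benjamini-Hochberg adjustment over all 30896 genes, with a call at an adjusted p under 0.05. It called 1 of the 9 genes higher and 2 lower, a total of 3 of 9. Over all genes 6.49% were called, 2.95% higher and 3.54% lower. The 9 differences had a median of -0.13 on the log2 scale against 0.01 for all genes, and a median size of 0.20 against 0.11. Differences of at least 0.2 in size were seen in 5 of 9 genes, against 23.0% of all genes, and an unadjusted p under 0.05 in the same 5, Ppia, Ppib, Ppid, Ppil3 and Ppwd1, against 20.8%. In male arrays 2 of 9 were called, Ppib higher and Ppid lower, where 3.17% of all genes were called, 1.53% higher and 1.64% lower. The groups did not overlap for Ppia, Ppib, Ppid and Ppwd1, 4 of 9 genes, against 9.09% of all genes, 4.04% higher and 5.05% lower. The male arrays are a part of all arrays, so these 4 could not overlap there, and their result in male arrays is no further test. No other member was without overlap in male arrays, where 15.1% of all genes did not overlap. For each of the 4, the exact two-sided permutation test over all splits of the arrays into 5 and 5 gave p = 0.00794. That is the smallest it can give, and it was 0.0873 after adjustment over all genes. Any gene whose groups do not overlap must get this value, so it restates the lack of overlap and is no further test.

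**Figure D1:**
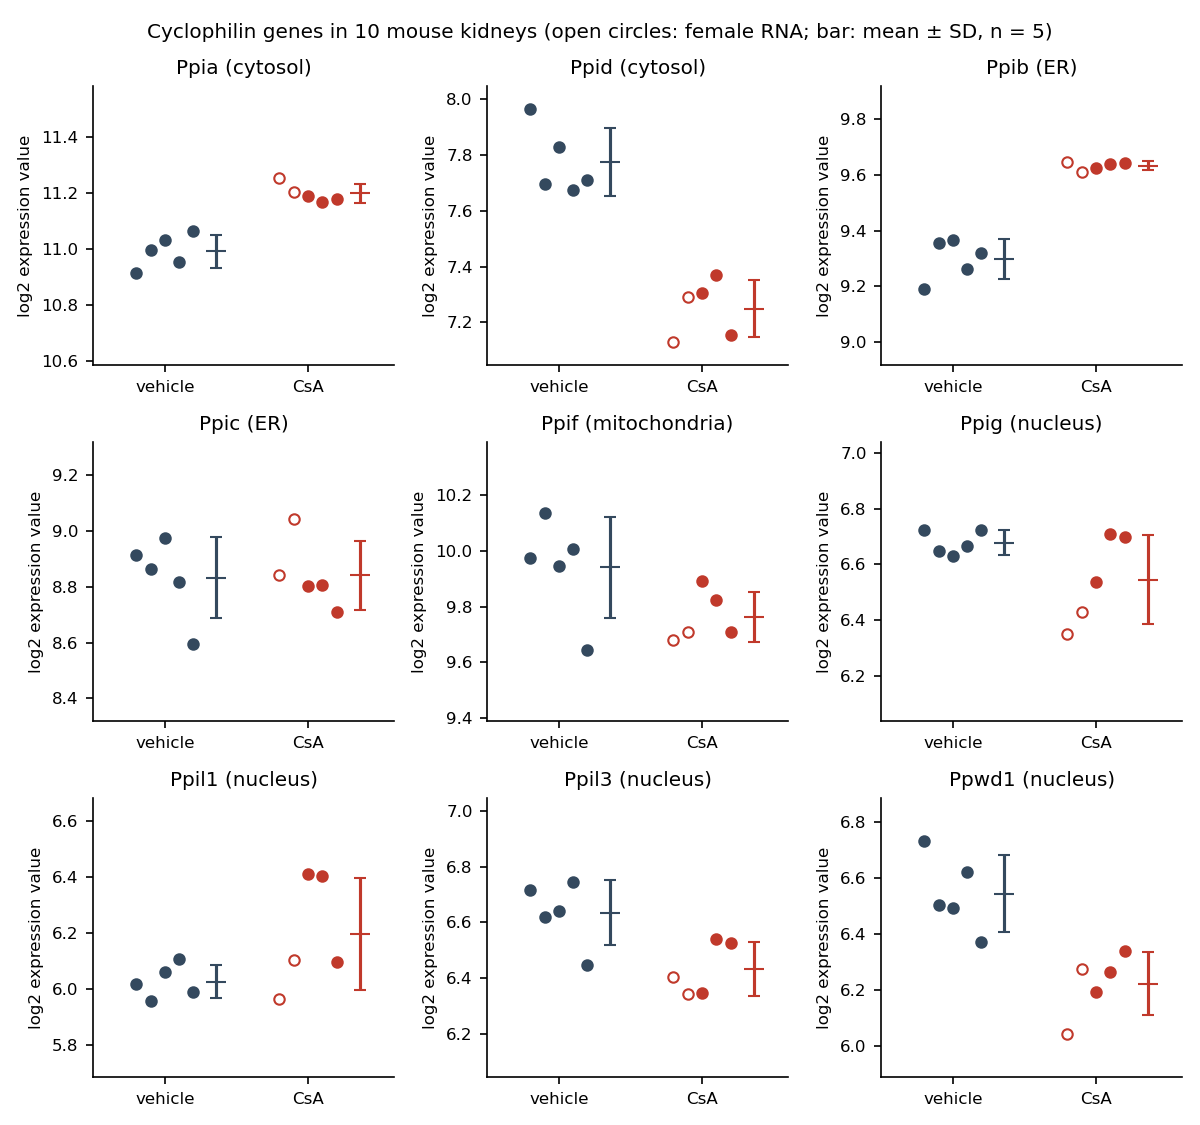
Log2 expression values of the 9 measured cyclophilin genes in each array, vehicle on the left and CsA on the right of each panel, with every panel spanning 1 log2 unit. Open circles are the 2 arrays with female RNA, and bars give the mean ± SD of 5 arrays. Ppia, Ppib, Ppid and Ppwd1 show no overlap between the groups, and the 5 CsA values of Ppib lie between 9.61 and 9.65.

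The promoters of 3 of these 4 genes are shown so that the sequence before the start can be set beside the direction in which each transcript differed. The sequences are those of RefSeq on mouse build GRCm38.p6, whose table held promoters of 8 of the 10 family genes, with Ppic and Ppid not among them. Each line gives the 250 bases before the start, 5′ to 3′ on the strand of the gene. Capitals mark 4 motifs on either strand. The GC box was searched as GGGCGG and the CCAAT box by the letters of its name. The TATA box was searched as TATAAA. The site of NRF1, a factor of mitochondrial and housekeeping genes, was GCGCA followed after any 1 base by the letters GCGC. No matches in capitals overlapped.
Ppib, plus strand, chr9:66059919-66060168: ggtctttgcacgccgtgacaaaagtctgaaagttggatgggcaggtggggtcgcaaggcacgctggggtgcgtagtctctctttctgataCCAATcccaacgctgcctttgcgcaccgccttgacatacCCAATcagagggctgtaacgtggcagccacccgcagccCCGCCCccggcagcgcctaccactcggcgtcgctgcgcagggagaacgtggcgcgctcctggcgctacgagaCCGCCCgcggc
Ppia, plus strand, chr11:6415617-6415866: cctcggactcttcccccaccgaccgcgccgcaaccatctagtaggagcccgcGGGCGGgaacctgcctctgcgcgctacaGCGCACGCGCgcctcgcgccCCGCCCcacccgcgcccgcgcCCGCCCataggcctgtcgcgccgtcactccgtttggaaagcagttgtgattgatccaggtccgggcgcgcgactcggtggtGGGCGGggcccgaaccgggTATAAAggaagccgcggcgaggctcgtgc
Ppwd1, minus strand, chr13:104228845-104229094: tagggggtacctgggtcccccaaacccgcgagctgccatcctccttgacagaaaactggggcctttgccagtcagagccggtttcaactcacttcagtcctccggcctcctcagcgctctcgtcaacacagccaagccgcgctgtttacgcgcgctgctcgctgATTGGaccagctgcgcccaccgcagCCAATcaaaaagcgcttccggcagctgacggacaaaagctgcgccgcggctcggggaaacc
The Ppia window had 4 GC boxes, a TATA box from base -29 to -24 before the start, and an NRF1 site. Ppib had 2 CCAAT boxes and 2 GC boxes, and Ppwd1 had 2 CCAAT boxes, 1 on each strand, and no GC box. Of 32851 promoter windows of this length, 32.7% held a GC box, 33.8% a CCAAT box, 12.4% a TATA box and 3.74% an NRF1 site. The ER stress response element (CCAAT and CCACG with 9 bases between) occurred in 0.113% of the windows, the heat shock element (GAA, TTC and GAA with 2 bases between each) in 0.466%, the cyclic AMP response element (TGACGTCA) in 1.55% and the E-box (CACGTG) in 6.02%. None of the 8 family windows held any of these 4 motifs. The core bound by NFAT (TGGAAA), the factor that calcineurin switches on, was found in 18.6% of all windows and, among the family, in Ppia, Ppig, Ppih and Ppil3, where it is not in capitals. The members' windows were rich in G and C, at 72.4% for Ppia, 65.2% for Ppib and 62.8% for Ppwd1, against a median of 52.4%. A match of letters is not a shown binding site.

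Ppia encodes cyclophilin A, the abundant cytosolic protein through which CsA reaches calcineurin. Its values in CsA replicates 1 to 5 were 11.25, 11.20, 11.19, 11.17 and 11.18, and in vehicle replicates 1 to 5 they were 10.91, 11.00, 11.03, 10.96 and 11.06. All CsA arrays lay above all vehicle arrays, by 0.105 or more, and the female CsA arrays held the highest values. The difference of 0.21 ± 0.06 (SE) on the log2 scale, with a 95% interval from 0.08 to 0.33, missed the threshold by limma (adjusted p = 0.0529). In male arrays it was 0.19 ± 0.07 (limma adjusted p = 0.162).

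A second array feature also carried the Ppia accession. There CsA values ran from 10.86 to 10.94 and vehicle values from 10.50 to 10.76, again with no overlap. Its difference was 0.26 ± 0.06 (SE) and passed when it stood for the gene (limma adjusted p = 0.0310), a setting tried after its values were seen. Among all 41345 features it had a limma adjusted p of 0.0445 and the first feature 0.0674, and in male arrays the second was at 0.26 (adjusted p = 0.132). Ppia has many processed copies in the mouse genome, and how far probes on either feature read those copies was not tested. E030024N20Rik, annotated as a Ppia pseudogene, lay lower with CsA by 0.20 ± 0.11 (SE) and was not called (limma adjusted p = 0.323).

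Ppid encodes the large cytosolic cyclophilin that joins a tetratricopeptide domain to the enzyme and works as a co-chaperone of HSP90. Its values were 7.13, 7.29, 7.31, 7.37 and 7.15 in CsA replicates 1 to 5, and 7.96, 7.69, 7.83, 7.67 and 7.71 in the vehicle replicates. The highest CsA array lay 0.31 below the lowest vehicle array, the widest gap of the 4 genes without overlap. Ppid fell by 0.52 ± 0.08 (SE) on the log2 scale (limma adjusted p = 0.00300), with a 95% interval from -0.69 to -0.35. In male arrays the difference was -0.50 ± 0.09 (limma adjusted p = 0.0231). With 1 array left out in turn it stayed between -0.55 and -0.48, and the highest of these adjusted p-values was 0.0112. In male arrays with 1 more left out, Ppid was called in 4 of 8 fits, those without vehicle replicate 1, 2, 4 or 5, and the highest adjusted p was 0.0903.

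The partners of Ppid in the HSP90 cycle were read from a list of 18 measured genes, of which 1 fell and none rose, with a median of -0.09. In male arrays none was called and the median was -0.03. For this list and those below, the shares of all genes were 2.95% called higher and 3.54% called lower. In male arrays these shares were 1.53% and 1.64%. Chordc1, an HSP90 co-chaperone, fell by 0.51 ± 0.12 (SE; limma adjusted p = 0.0280), and its groups overlapped. In male arrays Chordc1 differed by -0.44 and was not called (adjusted p = 0.136), and it was also not called without CsA replicate 1, 2, 4 or 5 or vehicle replicate 2, 3 or 5, with adjusted p up to 0.0725. In 7 genes of the list the unadjusted p by limma was under 0.05, against 20.8% of all genes. Among them were Hsp90aa1, the inducible HSP90 gene, at -0.31 (adjusted p = 0.148), and Ptges3, the co-chaperone p23, at -0.27 (adjusted p = 0.0635). Of the 7 only Stub1 was higher with CsA, at 0.24 (adjusted p = 0.154). In male arrays Hsp90aa1 was at -0.17 (adjusted p = 0.437) and Ptges3 at -0.34 (adjusted p = 0.0623). Fkbp5 and Fkbp4, the FK506-binding proteins that occupy the same place on HSP90 as the Ppid product, differed by -0.63 (adjusted p = 0.107) and 0.06 (adjusted p = 0.766), and in male arrays by -0.59 (0.274) and 0.10 (0.678). Fkbp5 ranged widely in vehicle, with an SD of 0.56 against 0.11 in CsA.

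Ppib encodes cyclophilin B, which folds secreted proteins in the endoplasmic reticulum (ER). Its CsA values were 9.64, 9.61, 9.63, 9.64 and 9.64, and its vehicle values 9.19, 9.36, 9.36, 9.26 and 9.32, in replicate order. The CsA arrays, female and male, lay close together and at least 0.24 above every vehicle array. The SD was 0.02 in CsA and 0.07 in vehicle (n = 5 each). Ppib rose by 0.33 ± 0.06 (SE) on the log2 scale, with a 95% interval from 0.21 to 0.46 (limma adjusted p = 0.00709), and by 0.34 ± 0.07 in male arrays (limma adjusted p = 0.0326). Leaving out any 1 of the 10 arrays kept it between 0.31 and 0.35, with the highest adjusted p at 0.0230. In male arrays it was called in 1 of 8 such fits, the one without vehicle replicate 5, and the highest adjusted p was 0.109.

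Of 19 measured ER genes that fold proteins beside cyclophilin B, 3 rose and 1 fell, with a median of 0.07. In male arrays 2 rose and none fell, with a median of 0.09. Those that rose were P4hb, the protein disulfide isomerase subunit of collagen prolyl hydroxylase, Fkbp2, an FK506-binding protein of the ER, and Sdf2l1, an ER chaperone partner. P4hb was higher by 0.30 ± 0.06 (SE; limma adjusted p = 0.0166) and Fkbp2 by 0.34 ± 0.07 (limma adjusted p = 0.0154), both without overlap, and both were also called in male arrays (0.32 and 0.40, adjusted p = 0.0430 and 0.0314). Sdf2l1 was higher by 0.44 (adjusted p = 0.0337), with groups that overlapped, and was not called in male arrays (0.40, adjusted p = 0.142) nor without CsA replicate 1, 2, 3 or 4 or vehicle replicate 1, 4 or 5, with adjusted p up to 0.0797. The chaperone gene Hspa5 was at 0.06 (adjusted p = 0.813), and at 0.13 in male arrays (adjusted p = 0.624).

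Cyclophilin B, the Crtap product and the P3h1 product form the ER complex that hydroxylates collagen prolines, and the 3 genes did not share a direction. Crtap fell by 0.58 ± 0.14 (SE; limma adjusted p = 0.0305), while P3h1 was higher by 0.14 ± 0.06 without a call (adjusted p = 0.241). Crtap was at 8.92 ± 0.30 in CsA and 9.50 ± 0.20 in vehicle (SD, n = 5). In male arrays its difference was -0.37 (adjusted p = 0.104), over 1.5 times smaller, and P3h1 was at 0.09 (adjusted p = 0.523). It was also not called without CsA replicate 1 (adjusted p = 0.0643) or 2 (0.0561) or vehicle replicate 1 (0.0733), 2 (0.0736), 3 (0.0737) or 4 (0.0606).

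Ppic encodes cyclophilin C, another cyclophilin of the secretory pathway. Its CsA values were 8.84, 9.04, 8.80, 8.80 and 8.71 and its vehicle values 8.91, 8.86, 8.97, 8.82 and 8.59. The groups overlapped almost fully. The difference was 0.01 ± 0.09 (SE; limma adjusted p = 0.974), with a 95% interval from -0.18 to 0.20, so a change of the size seen in Ppib lay outside the interval. In male arrays it was -0.06 (adjusted p = 0.776).

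Ppif encodes the mitochondrial cyclophilin, which opens the permeability transition pore when calcium rises, an action that CsA blocks. Its values were 9.68, 9.71, 9.89, 9.82 and 9.71 with CsA and 9.97, 10.13, 9.94, 10.01 and 9.64 with vehicle. Vehicle replicate 5 was the lowest of all 10 arrays, and the other 4 vehicle arrays lay above every CsA array. The difference was -0.18 ± 0.09 (SE; limma adjusted p = 0.286), with a 95% interval from -0.37 to 0.02, and -0.13 in male arrays (adjusted p = 0.552). Without vehicle replicate 5 it was -0.25 (adjusted p = 0.0683). The transcript from its opposite strand, Ppifos, was at 5.37 ± 0.22 in CsA and 5.10 ± 0.28 in vehicle (SD, n = 5) and was not called (adjusted p = 0.303).

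Of 19 measured genes tied to the permeability transition, 2 fell and none rose, both in all arrays and in male arrays. The median was -0.09 over all arrays and -0.04 in male arrays. They were Vdac3 and Vdac2, which encode channels of the outer mitochondrial membrane. Vdac3 fell by 0.29 ± 0.06 (SE; limma adjusted p = 0.0123) and Vdac2 by 0.26 ± 0.06 (limma adjusted p = 0.0215). In both the groups did not overlap, and in male arrays the differences were -0.32 and -0.30 (adjusted p = 0.0299 and 0.0353). Vdac2 was not called without vehicle replicate 2 (adjusted p = 0.0596). In 5 of the 19 genes the groups did not overlap, all lower with CsA, against 5.05% of all genes. Besides Vdac3 and Vdac2 these were Atp5a1 at -0.14 (limma adjusted p = 0.177), Vdac1 at -0.12 (0.247) and Slc25a4, none of them called. The inner membrane carriers for ADP and ATP, Slc25a4 and Slc25a5, differed by -0.11 (adjusted p = 0.259) and 0.04 (adjusted p = 0.790), and in male arrays by -0.11 (0.367) and 0.03 (0.852).

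**Figure D2:**
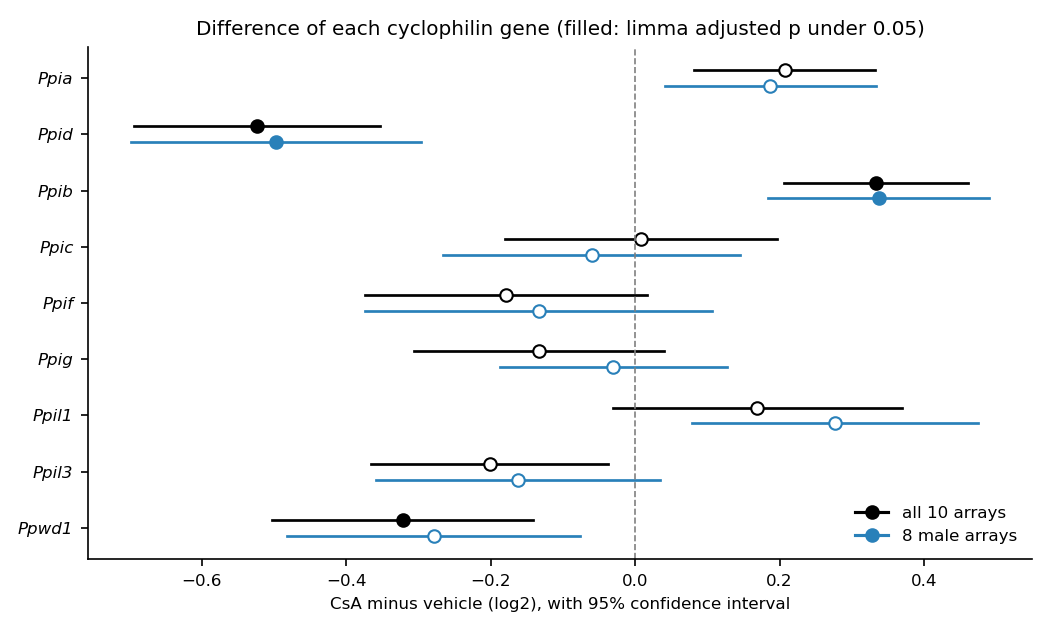
CsA minus vehicle on the log2 scale for each measured cyclophilin gene, with the 95% confidence interval of the limma fit, for all 10 arrays (black) and the 8 male arrays (blue). Filled points passed an adjusted p of 0.05: Ppib, Ppid and Ppwd1 over all arrays, and Ppib and Ppid in male arrays.

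Ppwd1 encodes a nuclear protein that joins WD repeats to a cyclophilin domain. Its values were 6.04, 6.28, 6.19, 6.27 and 6.34 with CsA and 6.73, 6.51, 6.49, 6.62 and 6.37 with vehicle. The groups did not overlap, but the gap between CsA replicate 5 and vehicle replicate 5 was only 0.03. Ppwd1 fell by 0.32 ± 0.08 (SE; limma adjusted p = 0.0398), and its 95% interval ran from -0.50 to -0.14. In male arrays the difference was -0.28 ± 0.09 and was not called (limma adjusted p = 0.134). The call was also lost without CsA replicate 1 (adjusted p = 0.0742), 2 (0.0678), 3 (0.0792) or 4 (0.0624) and without vehicle replicate 1 (0.0891), 2 (0.0750), 3 (0.0728) or 4 (0.0914).

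Ppil3 encodes a small cyclophilin that consists of little more than the enzyme domain. Its values were 6.40, 6.35, 6.35, 6.54 and 6.53 with CsA and 6.72, 6.62, 6.64, 6.75 and 6.45 with vehicle. Vehicle replicate 5 lay within the CsA range, and the other 4 vehicle arrays lay above it. The difference was -0.20 ± 0.08 (SE; limma adjusted p = 0.146), and -0.16 in male arrays (adjusted p = 0.359).

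Ppig encodes a nuclear cyclophilin with a long tail rich in serine and arginine, and Ppil1 a small cyclophilin that sits in the active spliceosome. Ppig values were 6.35, 6.43, 6.54, 6.71 and 6.70 with CsA and 6.72, 6.65, 6.63, 6.67 and 6.72 with vehicle. Ppil1 values were 5.96, 6.10, 6.41, 6.40 and 6.09 with CsA and 6.02, 5.96, 6.06, 6.11 and 5.99 with vehicle. In both genes the CsA arrays spread more widely than the vehicle arrays, with SDs of 0.16 against 0.04 for Ppig and 0.20 against 0.06 for Ppil1. The female CsA arrays were the lowest 2 of the CsA group in Ppig, and CsA replicates 3 and 4 the highest 2 in Ppil1. Neither gene was called, Ppig at -0.13 ± 0.08 (SE; limma adjusted p = 0.375) and Ppil1 at 0.17 ± 0.09 (adjusted p = 0.329). In male arrays Ppig was at -0.03 (adjusted p = 0.861) and Ppil1 at 0.28 (adjusted p = 0.129), so both values moved by over 1.5 times. Ppig was at -0.09 without CsA replicate 1 alone (adjusted p = 0.550).

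Female and male CsA arrays were compared in a fit with a term for female RNA. That fit called Ppib and Ppid between CsA and vehicle, 2 of 9, where 3.27% of all genes were called. Between female and male CsA arrays limma called none of the 9 genes, where 0.589% of all genes were called. Ppig and Ppil1 had an unadjusted p under 0.05, a cutoff at which all genes were not counted in this comparison. Ppig was lower in the female arrays by 0.26 ± 0.09 (SE; limma adjusted p = 0.351), and Ppil1 by 0.27 ± 0.11 (adjusted p = 0.469). No vehicle array carried female RNA, so a difference between the sexes in the response to the drug could not be tested. For the genes called over all arrays the female term was -0.01 ± 0.09 for Ppib, -0.07 ± 0.11 for Ppid and -0.11 ± 0.12 for Ppwd1 (SE). With this term Ppwd1 was not called between CsA and vehicle (limma adjusted p = 0.150).

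Spliceosome proteins among which the nuclear cyclophilins work gave no called gene by limma. Their median was -0.06, and 4 of 27 had an unadjusted p by limma under 0.05, against 20.8% of all genes. In male arrays none was called either, with a median of -0.05. Prpf3 and Prpf4, the partners of the Ppih product in the small nuclear ribonucleoprotein, differed by -0.12 each (limma adjusted p = 0.355 and 0.354). Snw1, the partner of the Ppil1 product, was at -0.06 (adjusted p = 0.655).

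Of 7 further cyclophilin genes, Ranbp2 fell and no other was called. Ranbp2, a nuclear pore protein that ends in a cyclophilin domain, had CsA values of 9.14, 9.23, 9.17, 9.22 and 9.10 and vehicle values of 9.38, 9.35, 9.36, 9.40 and 9.41. The groups did not overlap, and the difference was -0.21 ± 0.06 (SE; limma adjusted p = 0.0455), or -0.22 in male arrays without a call (adjusted p = 0.0983). Leaving out any 1 of the 10 arrays also ended the call, with adjusted p from 0.0610 to 0.0985 and differences from -0.23 to -0.19. Ppil6 did not overlap either, at 6.42 ± 0.26 in CsA and 6.78 ± 0.14 in vehicle (SD, n = 5), and was not called (-0.36, limma adjusted p = 0.0946), nor in male arrays (-0.41, adjusted p = 0.163). The remaining genes were Ppie at 0.02, Ppil2 at 0.10, Ppil4 at -0.05, Cwc27 at -0.02 and Nktr at -0.07.

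The FK506-binding proteins and parvulins are the other families of proline isomerases, which CsA does not target. Of 18 measured genes, 1 rose and 1 fell, and the median was -0.08. In male arrays 1 rose and none fell, with the same median of -0.08. The gene that rose was Fkbp2, given above, and Fkbp14, another ER member of the family, fell by 0.48 ± 0.09 (SE; limma adjusted p = 0.0111), without overlap. In male arrays Fkbp14 was at -0.42 and not called (adjusted p = 0.0630). Fkbp1a, the cytosolic target of the drug FK506 and so the counterpart of Ppia, was at 0.00 ± 0.08 (adjusted p = 0.997).

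Calcineurin, the phosphatase that the CsA-cyclophilin pair inhibits, had 1 of 5 measured subunit genes called lower and none called higher. This was Ppp3cc, a catalytic subunit, which fell by 0.42 ± 0.07 (SE; limma adjusted p = 0.00567), and was at -0.37 in male arrays, also called (adjusted p = 0.0257). In 4 of the 5 the unadjusted p by limma was under 0.05, against 20.8% of all genes. Besides Ppp3cc these were Ppp3r1 at -0.19 (adjusted p = 0.0757), Ppp3cb at -0.20 (0.122) and Ppp3ca at -0.19 (0.156), while Ppp3r2 was at 0.07 (0.812). Secreted cyclophilin A acts on cells through basigin, encoded by Bsg, which was at 0.08 ± 0.07 (adjusted p = 0.557), and at 0.05 in male arrays (adjusted p = 0.779). Of 10 genes for basigin, its transporter partners and the matrix proteases it induces, the protease gene Mmp14 rose, by 0.34 ± 0.09 (adjusted p = 0.0410), and none fell. Mmp14 was not called in male arrays (0.30, adjusted p = 0.153), and its groups overlapped. It was also not called without CsA replicate 1, 2, 3 or 4 or vehicle replicate 2, 3 or 4, with adjusted p up to 0.0918.

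**Figure D3:**
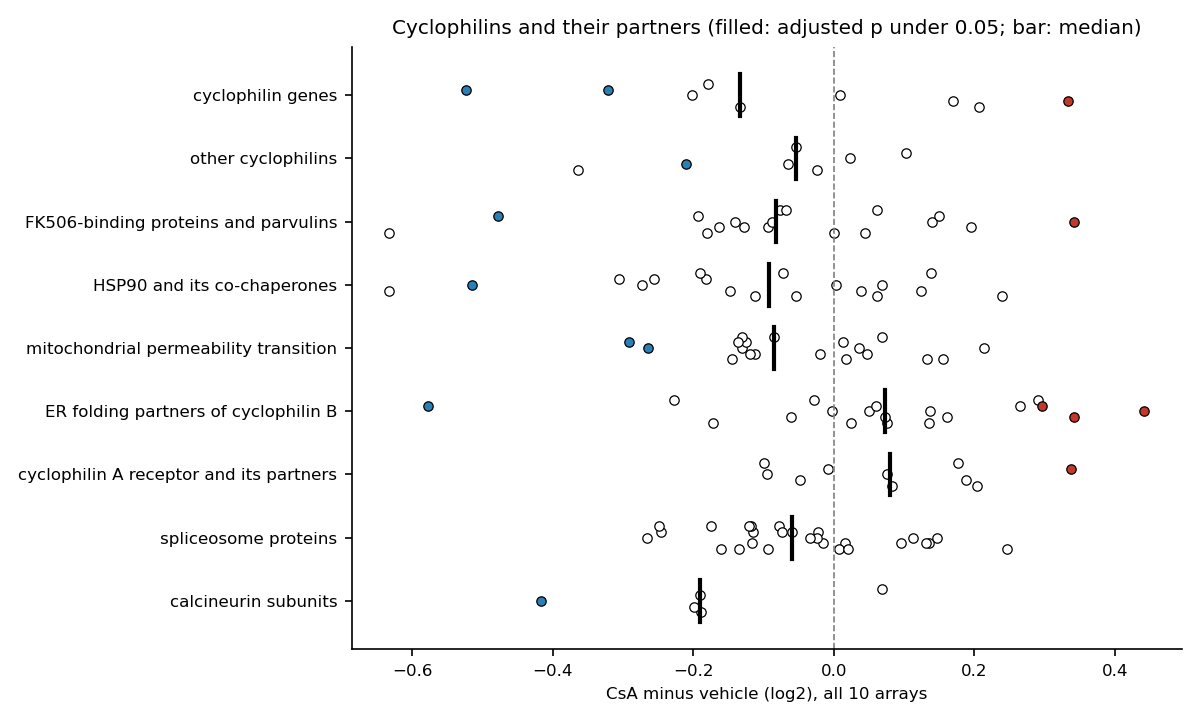
CsA minus vehicle on the log2 scale over all 10 arrays for the 9 measured cyclophilin genes (top row) and 8 lists of related genes, 1 point per gene. Filled points passed an adjusted p of 0.05, red higher and blue lower, and bars are medians, which run from -0.19 for calcineurin subunits to 0.08 for basigin and its partners.

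Genes lying next to the cyclophilins on the chromosomes were added after the members' values were seen. Of the 18 nearest protein-coding neighbours in the RefSeq table of GRCm38.p6, 17 were measured. Of these 1 was called, a share near the 6.49% of all genes called, with differences from -0.38 to 0.23 and a median of -0.10. The called neighbour was Trim23, a ubiquitin ligase gene next to Ppwd1. Its values were 6.83, 6.64, 6.72, 6.79 and 6.86 with CsA and 7.14, 7.12, 7.25, 7.16 and 7.07 with vehicle, with no overlap. The difference was -0.38 ± 0.07 (SE; limma adjusted p = 0.00676), and Trim23 was called in male arrays too (-0.36, adjusted p = 0.0312), where Ppwd1 was not. Etfdh, the electron transfer gene next to Ppid, was at -0.31 ± 0.10 without a call (adjusted p = 0.0859), and at -0.15 in male arrays.

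For each called member, the genes with the most similar profile were found by the root mean square distance between centred log2 values over the 10 arrays, among 18706 named genes. Nearest to Ppib were Camk2n1, Ftl1, Colgalt1, Rpn2 and P4hb, at distances from 0.03 to 0.05, where Ppib itself varied by 0.17 about its mean. Nearest to Ppid were Swt1, Azin1, Mob4, Ranbp6 and Dleu2, at 0.07 to 0.09 against 0.28. Nearest to Ppwd1 were Tmem207, Sptlc2, Slc25a40, Krr1 and Acyp2, at 0.06 to 0.07 against 0.20. These distances include the difference between the groups, which all 15 genes shared in direction with their member.

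Markers of some other cells moved with the treatment. Of 10 macrophage genes 8 rose and none fell, and their summed level on the log2 scale ran from 11.31 to 11.62 in CsA and from 10.76 to 11.02 in vehicle. Plasma cell genes, from cells rich in ER proteins such as cyclophilin B, had none of 8 called and 1 at an unadjusted p under 0.05 by limma. The summed level of these plasma cell genes ran from 9.83 to 10.02 in CsA and from 9.65 to 10.05 in vehicle. Of all genes 20.8% had an unadjusted p under 0.05, the share for this count and those of the cell types that follow. Of 8 fibroblast and pericyte genes and 8 genes of proliferating cells, limma called none, with 1 and 3 at an unadjusted p under 0.05. Of 7 adipocyte genes 1 rose, with a median of 0.27, and of 4 measured erythroid genes none was called by limma, while 1 had an unadjusted p under 0.05. In male arrays 7 macrophage genes rose. There 2 adipocyte genes also rose, Retn by 0.96 (adjusted p = 0.0169) and Cfd by 0.68 (adjusted p = 0.0312), with a median of 0.65. The erythroid gene Hbb-bt rose by 1.21 in male arrays (adjusted p = 0.00503). The part of RNA from macrophages, adipocytes or red cells in the differences of the cyclophilin genes was not tested.

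**Figure D4:**
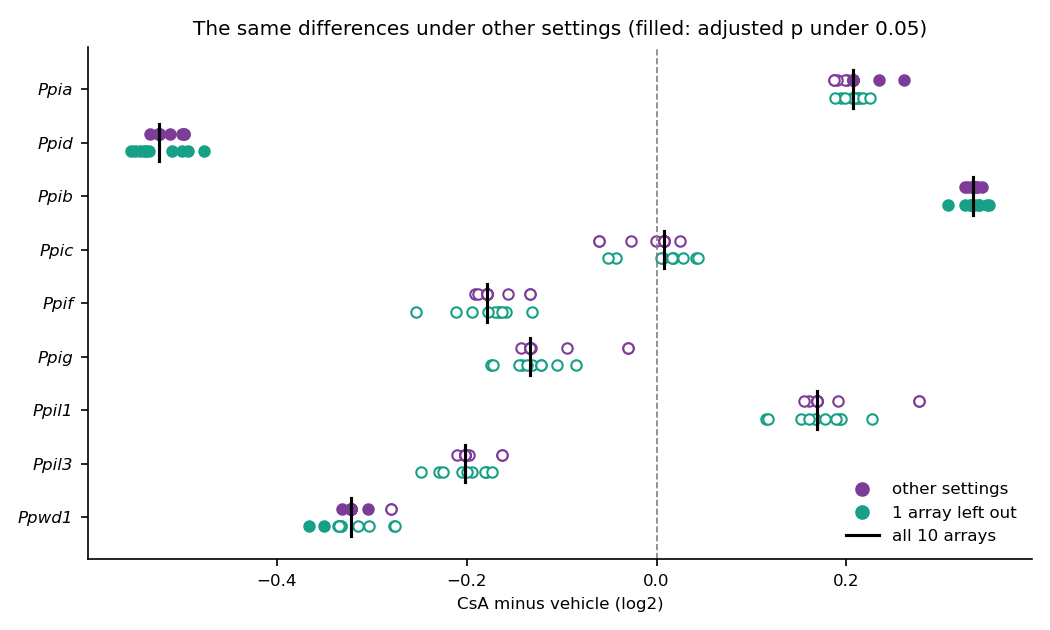
CsA minus vehicle on the log2 scale for each cyclophilin gene under other processing settings (purple) and with 1 array left out (green), with the value from all 10 arrays as a vertical bar. Filled points passed an adjusted p of 0.05. Ppib and Ppid are filled throughout, Ppwd1 and Ppia only in part, and Ppic lies on both sides of 0.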

How the data were processed

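Kidney RNA of 10 samples was measured, 200 ng per array, per the labels' protocols. The authors deposited 1 log2 value for each array feature in each sample, and the submitters' processing notes name RMA and Partek 6.4 without order or settings. For the genome build and the annotation version, the entry is not given in the sources used here. Both deposited tables held the same 41345 features and differed by at most 0, so they were 1 source. Features were named by RefSeq accession (21749), gene identifier (1994), symbol (4580), synonym (243) or the deposited symbol alone (3905), and 8874 had no gene. The feature with the highest mean stood for a gene, and dim features were kept.

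Samples were grouped by their source names. The test was limma's (version 3.58.1, R 4.3.3; lmFit then eBayes, 2-sided, without covariates), and p-values were adjusted by Benjamini-Hochberg over all genes. Differences are CsA minus vehicle with the moderated SE. Array medians lay between 5.14 and 5.21, and correlations between arrays from 0.976 to 0.989. The number of arrays limits the precision. Array probes understate changes near background or saturation, and levels of different genes were not compared. The procedure was tested on simulated arrays. The members, the lists and the comparison of male arrays were chosen with earlier results of these data known. The genes named were the members, the further cyclophilins, called list genes (at most 4 per list) and 5 similar genes per called member, and further genes were picked for their role with their values already known. Alternatives were 2 filters on dim genes, 2 scalings, 2 variance models, array weights, 2 treatments of features, 2 treatments of female RNA and leaving out each array.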

Additional observations from a re-analysis of the deposited data

Results flagged for a closer look

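None of the 9 measured cyclophilin genes had an array flagged by Dixon's test. Ppif in vehicle replicate 5 was not flagged either, at 9.64 with the other vehicle arrays between 9.94 and 10.13. Among 52 tests of a gene in a group of 5 arrays, covering these genes and the named related genes, 4 showed an array whose gap to its nearest neighbour passed Dixon's 95% limit, and chance gives about 1 in 20. Ppil2 was at 8.38 in vehicle replicate 1, with the other vehicle arrays between 8.56 and 8.58. Chordc1 was at 8.21 in CsA replicate 3, with the other CsA arrays between 7.59 and 7.74. Vdac2 was at 9.75 in CsA replicate 1, with the others between 9.57 and 9.62. Ppp3cc was at 7.19 in vehicle replicate 5, with the others between 7.30 and 7.33.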

How the results depend on the processing

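Ppib and Ppid kept their direction and their call under all 12 alternatives and with each array left out. Each has 1 feature, so the mean of features and the other Ppia feature left their values unchanged. Male arrays and the female term gave the same differences, so these alternatives were not all independent. The count of called cyclophilin genes stayed between 2 and 4 under the alternatives and between 2 and 3 with 1 array left out. Ppia passed with eBayes trend and robust (adjusted p = 0.00511), both filters (0.0295 and 0.0126), no variance moderation (0.00914), the mean of its features (0.0383) and its other feature (0.0310), the last chosen after the data were seen. Ppwd1 was not called over all features (adjusted p = 0.0608), without moderation (0.0559), in male arrays (0.134) or with a term for female RNA (0.150). The count of genes without overlap was 4 throughout, except 6 without vehicle replicate 5. Leaving out arrays cannot lower this count, and filters, variance models and array weights leave the values unchanged. Most of these settings therefore could not test it, and the share of all genes without vehicle replicate 5 was not counted.

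In male arrays, leaving out 1 more gave 0 to 2 called members, 0 when any 1 of the CsA arrays or vehicle replicate 3 was left out. The 11 called genes of the related lists became 5 in male arrays or with the female term, 7 over all features, 17 with trend and robust and 21 with the median filter, and 6 to 10 with 1 array left out. All called genes, 2004 in number, became 980 in male arrays, 1010 with the female term and 3284 with the median filter, and 1134 to 1927 with 1 array left out. Values without a call turned sign in few cases. Ppic was at -0.0268 with array weights, -0.0010 with median centring, -0.0601 in male arrays and with the female term, and -0.0516 to 0.0435 with 1 array left out. Ppie was at -0.0211 with array weights, -0.0686 in male arrays and with the female term, and -0.0671 to 0.0748 with 1 array left out. With 1 array left out Cwc27 ran from -0.0580 to 0.0077, and Ppig in male arrays from -0.0610 to 0.0255. The cause of these changes was not tested, apart from fewer genes or arrays in a fit. The series matrix was identical and was not run. No paired analysis was possible because the labels give no replicate numbers shared by the groups.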
